A study of Homo sapiens with 6 samples.

Results

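The report concerns 37 genes that mark heart muscle cells: the contractile proteins of the sarcomere, the natriuretic peptides, the genes of calcium handling and excitation, and the transcription factors that set cardiac identity. The genes were taken by symbol from the deposited count table, whose Ensembl identifiers were matched to symbols through a table of gene names, and all 37 were found among 58299 genes. The choice rule itself uses no measured value, but the genes were chosen with earlier results of these data known.

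The samples were AC16 cells, an established human line obtained by fusing cells of adult ventricle with virally transformed fibroblasts; the title of the series calls them cardiomyocytes. Control cells (3 libraries) were kept in 0.1% DMSO for 72 h. Treated cells (3 libraries, named CDDO_DOX) received 100 nM CDDO-Me for 24 h and then 100 nM doxorubicin for 48 h, with harvest at 72 h as well. CDDO-Me is a triterpenoid that activates the transcription factor NRF2, and doxorubicin is an anthracycline that poisons topoisomerase II and is known for its toxicity to the heart. The labels name no other genotype or agent. Cells given a single drug were not analysed here, so no difference below can be assigned to either drug. AC16 is a single established line grown in serum-containing medium, and the labels do not say that replicates were separate cultures, so the p-values reflect only how far these 6 libraries vary, and that variation may be technical.

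In a working cardiomyocyte, calcium enters through the L-type channel, triggers release from the sarcoplasmic reticulum through the ryanodine receptor, binds troponin C on the thin filament and so lets myosin pull on actin. The calcium pump SERCA2 and the sodium-calcium exchanger then clear it. A group of transcription factors (GATA, NKX, T-box, HAND and MEF2 proteins with the coactivator myocardin) switches on these genes during heart development, and adult heart muscle holds sarcomere transcripts among its most abundant messages.

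Polyadenylated RNA was sequenced without strand information. Total counts in genes ran from 17150259 to 20193957 per library. Levels are CPM, counts scaled to library size with TMM factors, or the same per kilobase of exon (RPKM) where genes are compared with each other. Both are given as mean ± SD over n = 3 libraries. Log2 changes are treated minus control from edgeR's quasi-likelihood test fitted on all genes, with a standard error (SE) and a Benjamini-Hochberg adjusted p over the 15575 genes that passed the count filter; an adjusted p below 0.05 is a call. Bulk RNA cannot tell fewer cells of a type from less RNA per cell.

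Most of the contractile genes had almost no reads in either group. Of the 37 genes, 13 reached a mean of 1 CPM in controls and 13 in treated cells, 12 of them in both. Counts were present in all 6 libraries for 17 genes. In controls 15 genes had no count in any library, and TNNI3 had none in any of the 6. The filter of at least 10 counts, or the matching CPM, in 3 libraries left 15 genes for testing and removed 22. No removed gene had more than 17 counts in a library. A group without counts allows a level of up to 0.0572 CPM in controls and 0.0482 CPM in treated cells (3 counts over the 3 libraries, counting error only).

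**Figure D1:**
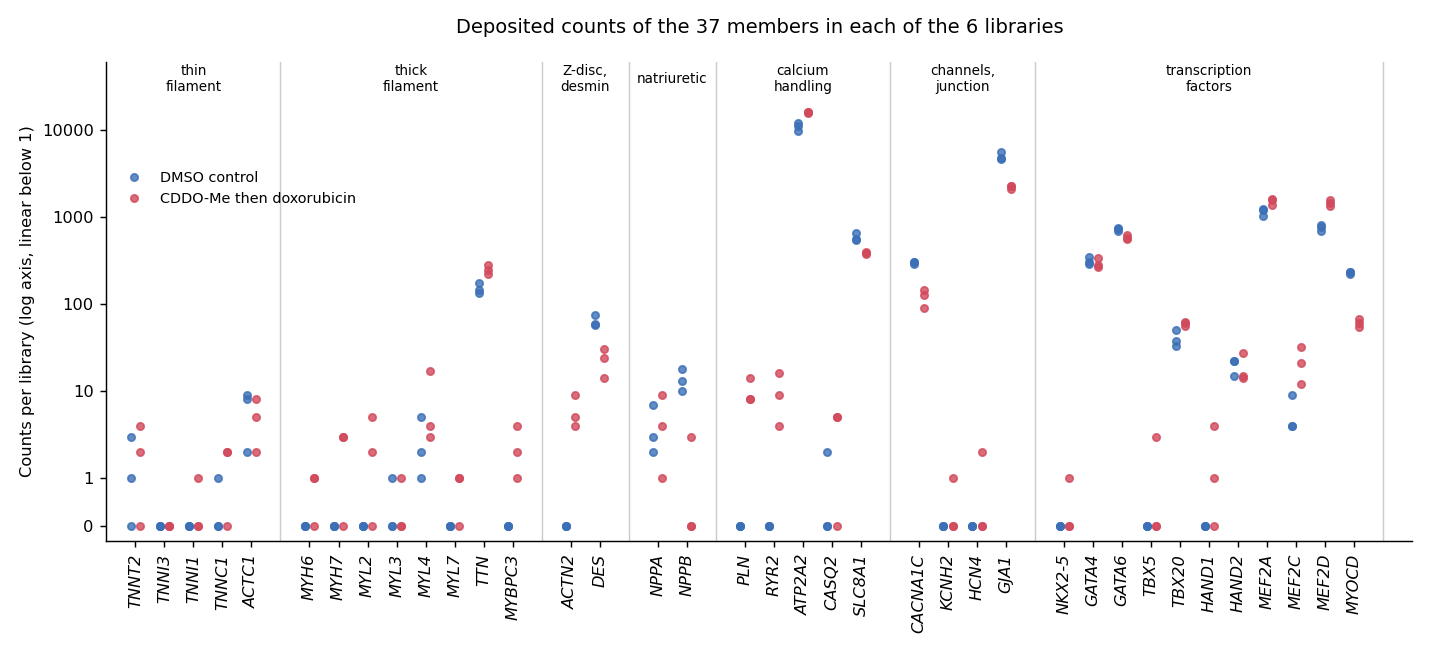
Counts of each of the 37 genes in every library (vertical axis, log scale and linear below 1), ordered by role along the horizontal axis. Each point is 1 library, blue for DMSO and red for CDDO-Me followed by doxorubicin. Most sarcomere genes lie at 0 to 17 counts, while ATP2A2 and GJA1 have at least 2095 counts in each library.

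The thin filament genes showed this most plainly. TNNT2, cardiac troponin T and a usual marker protein of cardiomyocytes, had 3, 1 and 0 counts in the controls and 2, 4 and 0 in the treated libraries. TNNI3, the cardiac form of troponin I, was at 0 throughout, and TNNI1, the form of the fetal heart and slow skeletal muscle, had 1 count in 1 treated library. TNNC1, cardiac troponin C, had 1, 0 and 0 counts and then 2, 0 and 2. The 2 groups overlapped for all of these genes.

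ACTC1, cardiac alpha-actin, was the best covered of the thin filament genes, with 8, 2 and 9 counts in the controls and 8, 5 and 2 in the treated libraries. Its ratio of summed counts, treated over control, was 0.665 with a 95% exact counting interval of 0.314 to 1.38, so no difference was detectable at this depth. The summed level of the 5 thin filament genes was 0.181 to 0.689 CPM in the controls and 0.236 to 0.578 CPM in the treated libraries. The labelled identity of the line was therefore not matched by these 5 transcripts in either group. Other thin filament genes, outside the members, were expressed. TNNT1, another troponin T gene, stood at 40.0 ± 2.09 CPM in controls and 25.1 ± 0.83 CPM in treated cells, and TPM1 is given below.

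Myosin genes were likewise near zero. MYH6 and MYH7, the alpha and beta heavy chains of the heart, had no control count and summed to 2 and 6 in the treated libraries; their sequences are close enough that reads could be split between them. MYL2, the ventricular regulatory light chain, had 0 counts in the controls and 0, 5 and 2 in the treated libraries. MYL7, the atrial form, reached 1 count in 2 treated libraries, and MYL3, the ventricular essential light chain, had 1 count in 1 library of each group.

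MYL4, the atrial essential light chain, had 1, 5 and 2 counts in the controls and 17, 3 and 4 in the treated libraries, so that treated replicate 1 alone stood above the rest. Its ratio of summed counts was 2.53 (95% exact counting interval 1.10 to 6.50), which covers counting error only, and the groups overlapped. MYBPC3, the myosin-binding protein of the thick filament, had 0 counts in each control and 2, 4 and 1 in the treated libraries.

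TTN, titin, the giant spring of the sarcomere (ENSG00000155657, chromosome 2, 178525989 to 178830802, GRCh38), seemed well expressed by its counts, with 7.58, 8.71 and 9.53 CPM in the controls and 10.6, 12.1 and 13.2 CPM in the treated libraries. Every treated library lay above every control. The log2 change was 0.47 (SE 0.124; edgeR adjusted p = 7.71e-04). Its annotated exons, however, span 118976 bases. Per kilobase it stood at 0.0723 ± 0.00822 RPKM in controls, next to ACTC1 at 0.0767 ± 0.0440 RPKM, and those levels differed by less than their spread. Exons of other genes cover 15.6% of these bases, most of them from the antisense gene TTN-AS1, which had 25 to 27 counts in the controls and 36 to 39 in the treated libraries. Without strand information the part of such reads in the TTN value was not tested.

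ACTN2, the alpha-actinin of the Z-disc, had 0 counts in each control and 9, 5 and 4 in the treated libraries. DES, desmin, the muscle intermediate filament (ENSG00000175084, chromosome 2, 219418377 to 219426739), behaved otherwise. It stood at 3.39, 4.47 and 3.14 CPM in the controls and at 0.674, 1.48 and 1.13 CPM after treatment, with no overlap. The fall was 3.33-fold (log2 change -1.74, SE 0.271; edgeR adjusted p = 9.61e-08).

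The natriuretic peptide genes, which heart muscle secretes as hormones and raises under load, differed from each other. NPPA (atrial natriuretic peptide) had 2, 3 and 7 counts and then 4, 9 and 1, with a ratio of summed counts of 0.982 (95% exact counting interval 0.422 to 2.32). Exons of an antisense gene, with 21 to 24 counts in the controls and 13 to 15 in treated libraries, cover 25.5% of its bases. NPPB (brain natriuretic peptide; ENSG00000120937, chromosome 1, 11857464 to 11858931) had 18, 10 and 13 counts in the controls and 3, 0 and 0 in the treated libraries, with every treated library below every control. The ratio of its summed counts was 0.0616 (95% exact counting interval 0.0122 to 0.193) and the fitted log2 change was -3.85 (SE 0.718; edgeR adjusted p = 4.31e-06). All 3 treated counts were in replicate 1: without that library the fitted log2 change was -6.89, a value that depends on the prior count. The gene passed the filter through the controls alone.

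Starts of the genes are shown for members that stand at the ends of this range: TNNT2 and ACTC1 among the near-silent sarcomere genes, MYBPC3 and PLN among those with counts in treated cells only, and ATP2A2, SLC8A1 and GJA1 among the expressed calcium handling and junction genes. Each window runs from 250 bases before to 50 bases after the start in RefSeq (GRCh38.p14), and where several starts are listed for a gene the first was taken. The windows are chr1:201377631-201377930 (minus strand) for TNNT2, chr15:34795500-34795799 (minus) for ACTC1, chr11:47352653-47352952 (minus) for MYBPC3, and chr6:118548046-118548345 (plus) for PLN. Those of the expressed genes are chr12:110280366-110280665 (plus) for ATP2A2, chr2:40512386-40512685 (minus) for SLC8A1 and chr6:121435396-121435695 (plus) for GJA1. Capitals mark exact matches, on either strand, to the short words bound by GATA factors, serum response factor (the CArG box), MEF2, T-box factors and the TATA-binding protein.
TNNT2: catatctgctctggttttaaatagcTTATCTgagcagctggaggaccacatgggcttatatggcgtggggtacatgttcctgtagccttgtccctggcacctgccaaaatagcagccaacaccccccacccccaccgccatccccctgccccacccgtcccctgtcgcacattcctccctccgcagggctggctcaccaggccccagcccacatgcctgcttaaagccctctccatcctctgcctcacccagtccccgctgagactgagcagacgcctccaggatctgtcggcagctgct
ACTC1: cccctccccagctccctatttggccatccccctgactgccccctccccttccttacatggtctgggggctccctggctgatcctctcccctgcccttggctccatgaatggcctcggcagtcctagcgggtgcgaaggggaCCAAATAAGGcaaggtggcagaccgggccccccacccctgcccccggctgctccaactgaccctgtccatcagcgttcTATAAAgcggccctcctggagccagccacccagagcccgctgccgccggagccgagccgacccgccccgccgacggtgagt
MYBPC3: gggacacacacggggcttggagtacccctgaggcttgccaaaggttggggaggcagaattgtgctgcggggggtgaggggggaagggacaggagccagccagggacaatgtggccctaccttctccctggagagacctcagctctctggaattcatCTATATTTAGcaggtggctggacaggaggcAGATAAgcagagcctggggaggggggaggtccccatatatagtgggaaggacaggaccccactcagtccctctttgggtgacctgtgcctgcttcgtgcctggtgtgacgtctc
PLN: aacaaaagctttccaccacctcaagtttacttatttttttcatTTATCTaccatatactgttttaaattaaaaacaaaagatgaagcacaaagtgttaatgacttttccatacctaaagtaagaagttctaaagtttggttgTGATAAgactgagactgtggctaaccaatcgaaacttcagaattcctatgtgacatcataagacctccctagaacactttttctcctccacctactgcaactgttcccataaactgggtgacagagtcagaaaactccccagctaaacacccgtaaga
ATP2A2: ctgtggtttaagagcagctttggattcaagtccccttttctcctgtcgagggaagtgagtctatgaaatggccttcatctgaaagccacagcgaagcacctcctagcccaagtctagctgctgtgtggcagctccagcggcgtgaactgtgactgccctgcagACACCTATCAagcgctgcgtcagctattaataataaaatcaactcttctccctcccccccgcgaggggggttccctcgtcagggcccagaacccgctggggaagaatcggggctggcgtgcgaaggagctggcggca
SLC8A1: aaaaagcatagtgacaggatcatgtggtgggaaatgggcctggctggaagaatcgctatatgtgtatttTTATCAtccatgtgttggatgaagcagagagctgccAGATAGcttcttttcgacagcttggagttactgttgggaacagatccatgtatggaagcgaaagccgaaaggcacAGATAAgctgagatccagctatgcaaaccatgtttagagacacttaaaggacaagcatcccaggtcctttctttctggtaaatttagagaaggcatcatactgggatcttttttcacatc
GJA1: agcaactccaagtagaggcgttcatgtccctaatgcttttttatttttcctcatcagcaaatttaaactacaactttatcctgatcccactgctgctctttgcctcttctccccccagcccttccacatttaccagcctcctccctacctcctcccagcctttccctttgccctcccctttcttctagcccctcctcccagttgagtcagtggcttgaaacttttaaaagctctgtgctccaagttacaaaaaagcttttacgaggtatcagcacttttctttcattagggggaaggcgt

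A start window was found for 27 of the 37 genes. The GATA word searched was AGATAA, where the first base may also be T and the last base G, on both strands as for every word. It stood in 11 of the 27 (40.7%), against 25.5% of 27305 windows of the same length, 1 per gene symbol. The CArG box stood in ACTC1 and MYL7 (7.41%, against 1.29% of all windows) and the MEF2 site in MYBPC3 and TTN (7.41%, against 0.593%). The T-box word, which reads AGGTGT, stood in ATP2A2 and MYL7 (7.41%, against 11.4% of all), and in ATP2A2 it overlapped the GATA match. The TATA box was searched as TATAAA and stood in ACTC1, MYH6 and NPPA (11.1%, against 12.0%). Both shorter words searched are too frequent to mark: AAGTG, bound by NKX2-5, stood in 33.3% of member windows and 43.4% of all, and the E-box CANNTG in 81.5% and 68.9%. ACTC1, with a CArG box ending 100 bases before its start and a TATA word at 31 to 26 bases before it, had 19 counts in the controls together. SLC8A1, with 3 GATA words, and GJA1, with no capital in its window, were both expressed and both lower after treatment. The start in a window was not always that of the gene model in the count table. For instance, it lies upstream of that model for ATP2A2 and GJA1, and within it for SLC8A1, ACTC1, TNNT2 and TTN. A match is only a match of letters.

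Calcium handling genes split into 2 sorts. ATP2A2, which encodes the SERCA2 pump of the sarcoplasmic or endoplasmic reticulum and is made in nearly all cell types (ENSG00000174437, chromosome 12, 110280756 to 110351093), was the most abundant by counts. It stood at 639, 590 and 650 CPM in the controls and 761, 797 and 746 CPM in the treated libraries, each above every control. The rise was 1.23-fold (log2 change 0.29, SE 0.0458; edgeR adjusted p = 9.84e-08).

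SLC8A1, the sodium-calcium exchanger NCX1 (ENSG00000183023, chromosome 2, 40097270 to 40611053), had 32.0, 33.1 and 35.6 CPM in the controls and 18.0, 19.2 and 18.1 CPM after treatment. The groups were well apart, and the fall was 1.82-fold (log2 change -0.87, SE 0.0833; edgeR adjusted p = 3.81e-14). Within each library, which removes the scaling factors, ATP2A2 was 29.8 ± 1.76 times SLC8A1 per kilobase in controls and 66.5 ± 0.814 times in treated cells. The antisense gene SLC8A1-AS1, which shares exon bases with SLC8A1 (9.31% of them), went the other way, with 0, 2 and 0 counts in the controls and 38, 32 and 22 in the treated libraries.

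The genes that are particular to the muscle form of the calcium store had reads mainly after treatment. PLN, phospholamban, the inhibitor of SERCA2, had 0 counts in each control and 8, 14 and 8 in the treated libraries. Set against the floor of 3 counts over the controls, its ratio was 8.42-fold (lower limit of the 95% counting interval 6.43). RYR2, the cardiac ryanodine receptor, had 0 counts and then 9, 16 and 4, a ratio of 8.14-fold (lower limit 6.21). For ACTN2 the same ratio was 5.05-fold (lower limit 3.70), and for MYBPC3 and MYL2, with 7 treated counts each, 1.96-fold (lower limit 1.21). These ratios take the treated counts as exact, so the lower limit is the more cautious value, but it covers counting error only. The groups overlapped for MYL2, and the fit without the filter given below called neither MYBPC3 nor MYL2 (edgeR adjusted p = 0.116 for each). For MYH7 (1.68-fold, lower limit 0.991) and HAND1 (1.40-fold, lower limit 0.771) the interval reached below 1. CASQ2, the calcium buffer calsequestrin of the heart, had 0, 2 and 0 counts and then 0, 5 and 5, a ratio of 4.21 with an interval of 0.897 to 39.5. Per kilobase these levels stayed low: PLN was at 0.242 ± 0.0887 RPKM and RYR2 at 0.0264 ± 0.0169 RPKM in treated cells, against 55.9 ± 1.91 RPKM for ATP2A2.

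A fit of all 36005 genes with any count, without the filter, called PLN (adjusted p = 2.27e-05), RYR2 (3.30e-05) and ACTN2 (0.00254; all by edgeR) higher. Of the 36 members with a count, 7 were called higher and 8 lower there, where 17.0% of all genes in that fit were called higher and 13.6% lower. Of the 22 genes left out by the filter 3 were called, all higher. Those percentages include well covered genes, so they are no background for the 22, and the share among all filtered-out genes was not computed. The number of genes with any count was 21816 to 22205 in the controls and 28021 to 28482 in treated libraries. Reads from near-silent genes were thus more frequent in treated cells across the genome. Among protein-coding genes without a count in the controls, 62.0% had a count in at least 1 treated library and 23.4% in all 3. Among the 15 cardiac genes of that kind the numbers were 14 (93.3%) and 4 (26.7%): ACTN2, PLN, RYR2 and MYBPC3. Of the 22 cardiac genes with counts but under 1 CPM in both groups, 18 (81.8%) had more counts per library size in treated cells, against 86.5% of 5670 such protein-coding genes. Treated libraries were 1.19 times larger in effective size, which includes the TMM factors. By total counts, control replicate 3 (19387496) and treated replicate 2 (19732013) were close, with 22205 and 28021 genes with a count. The part of depth in a first count was not tested.

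**Figure D2:**
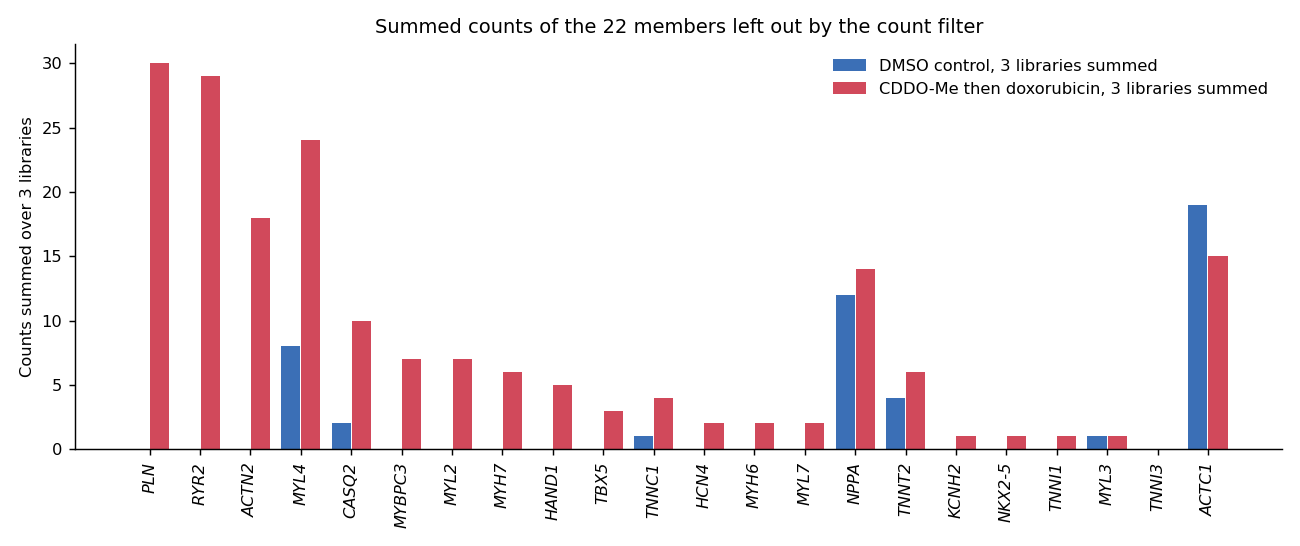
Counts summed over the 3 libraries of each group for the 22 genes left out by the filter (vertical axis), blue for DMSO and red for treated cells, ordered by the difference. PLN, RYR2 and ACTN2 have 30, 29 and 18 counts in treated cells and none in controls, while ACTC1 has 19 in controls and 15 after treatment.

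Channel and junction genes were lower where they could be tested. GJA1, connexin 43, the main gap junction protein of ventricular muscle and of many other cells (ENSG00000152661, chromosome 6, 121435692 to 121449727), stood at 271, 279 and 305 CPM in the controls and 101, 112 and 106 CPM in the treated libraries. The fall was 2.68-fold with no overlap (log2 change -1.42, SE 0.0516; edgeR adjusted p = 6.02e-34). CACNA1C, the pore subunit of the L-type calcium channel (ENSG00000151067, chromosome 12, 1970786 to 2697950), had 17.3, 17.2 and 16.6 CPM in the controls and 4.38, 7.04 and 5.99 CPM after treatment. Its fall was 2.94-fold (log2 change -1.55, SE 0.127; edgeR adjusted p = 5.83e-17). KCNH2, the hERG potassium channel, and HCN4, the pacemaker channel, had 0 counts in all controls and 1 and 2 in the treated libraries together.

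GJA1 and ATP2A2 changed places at the head of the order. Per kilobase GJA1 led in controls with 93.9 ± 5.78 RPKM, followed by ATP2A2 with 45.6 ± 2.33 RPKM, and in treated cells ATP2A2 led with 55.9 ± 1.91 RPKM over GJA1 with 35.0 ± 1.89 RPKM. The ratio of GJA1 to ATP2A2 within a library was 1.92, 2.14 and 2.12 in the controls and 0.600, 0.638 and 0.642 in the treated libraries. Among 19850 protein-coding genes GJA1 ranked 371 by RPKM in controls and 1271 in treated cells, and ATP2A2 ranked 979 and 686.

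**Figure D3:**
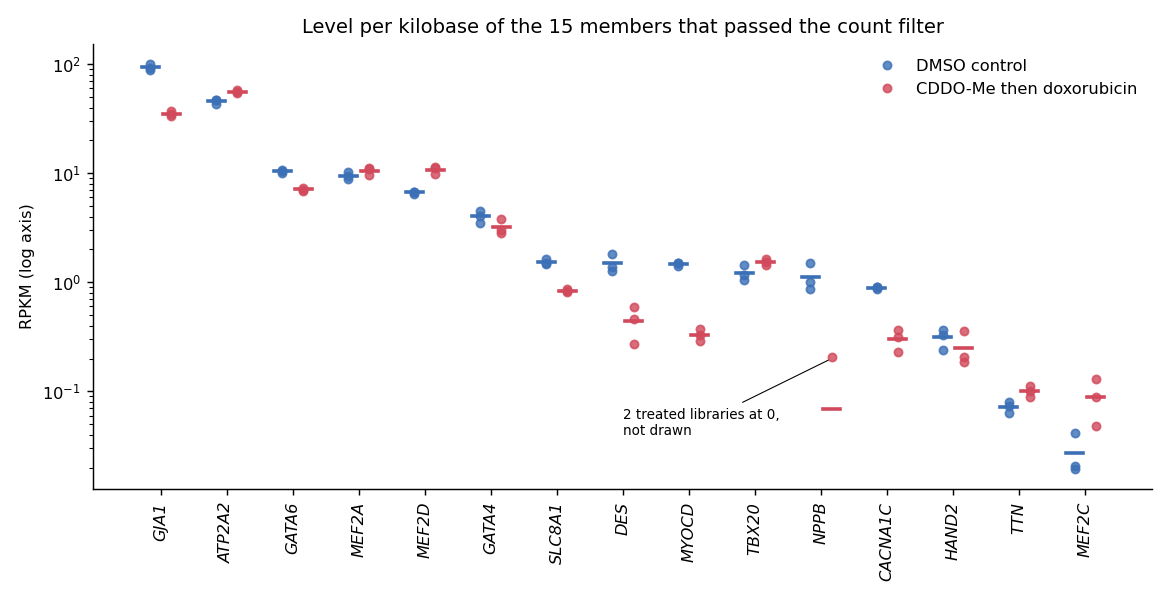
Level per kilobase (RPKM, log axis) of the 15 genes that passed the filter, in the order of their control mean; each point is 1 library and each bar the mean of 3. GJA1 falls below ATP2A2 in treated cells, and 2 treated libraries without NPPB counts cannot be drawn on this axis.

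The transcription factors were better represented than the sarcomere genes: 7 of 11 reached a mean of 1 CPM in controls, against 2 of 15 sarcomere and desmin genes. No factor reached the level of GJA1 or ATP2A2. GATA4, a zinc-finger factor of the early heart, stood at 19.9, 18.1 and 15.7 CPM in the controls and 13.4, 16.8 and 12.6 CPM in treated cells, where the groups overlapped. Its log2 change was -0.33 (SE 0.107; edgeR adjusted p = 0.00636). That call was lost without control replicate 1 (-0.25, edgeR adjusted p = 0.0614), without treated replicate 3 (-0.25, edgeR adjusted p = 0.0689) and with total-count scaling (-0.20, edgeR adjusted p = 0.0959). GATA6, its relative (ENSG00000141448, chromosome 18, 22169443 to 22202528), had 42.3, 41.2 and 39.4 CPM and then 27.7, 27.2 and 29.2 CPM. The groups did not overlap, and the fall was 1.46-fold (log2 change -0.55, SE 0.0739; edgeR adjusted p = 2.40e-09).

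The T-box, homeobox and HAND factors held few reads apart from TBX20. NKX2-5, the cardiac homeobox factor, had 1 count in 1 treated library and none in the other libraries, TBX5 had 3 counts in 1 treated library, and HAND1 had 0 counts in controls and 4, 0 and 1 in treated libraries. TBX20, a T-box factor of the heart, stood at 2.29 ± 0.369 CPM and 2.88 ± 0.177 CPM. Its log2 change of 0.32 (SE 0.234) did not pass the threshold (edgeR adjusted p = 0.234). HAND2 stood at 1.13 ± 0.241 CPM and 0.896 ± 0.329 CPM and was not called either (log2 change -0.32, SE 0.370; edgeR adjusted p = 0.456). Exons of the antisense gene HAND2-AS1, with 2 to 9 counts in the controls and 8 to 17 in treated libraries, cover 24.1% of its bases. For both genes the groups overlapped.

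The MEF2 factors, which bind muscle and stress-responsive genes, were higher after treatment, and myocardin was lower. MEF2D (ENSG00000116604, chromosome 1, 156463727 to 156500828) had 43.4, 41.5 and 43.5 CPM in the controls and 63.4, 71.0 and 73.9 CPM in treated cells, a 1.62-fold rise without overlap (log2 change 0.70, SE 0.0648; edgeR adjusted p = 1.04e-14). MEF2C, the family member most tied to heart development, had 4, 4 and 9 counts and then 32, 21 and 12, and its log2 change was 1.67 (SE 0.473; edgeR adjusted p = 0.00166). It passed the filter through the treated libraries alone, so a difference was built into its being tested; 2 other genes share 5.36% of its exon bases, and the larger part belongs to the antisense gene MEF2C-AS1, which had 0 counts in the controls and 9, 2 and 3 in treated libraries. MEF2A stood at 70.9, 61.2 and 65.2 CPM and then 66.6, 76.5 and 75.8 CPM, with overlap. Its log2 change of 0.15 (SE 0.0622; edgeR adjusted p = 0.0321) was not called by DESeq2 (adjusted p = 0.0807), without the filter (edgeR adjusted p = 0.100), or when any 1 of 4 libraries was left out (control replicates 2 and 3 and treated replicates 2 and 3; log2 change 0.09 to 0.13, edgeR adjusted p = 0.0933 to 0.267). Exons of the antisense gene LYSMD4 cover 11.1% of its bases, and that gene had 144 to 170 counts in the controls and 205 to 262 in treated libraries. Within a library the ratio of MEF2D to MEF2A per kilobase was 0.706 ± 0.0387 in controls and 1.03 ± 0.0258 in treated cells.

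MYOCD, myocardin, the muscle coactivator of serum response factor (ENSG00000141052, chromosome 17, 12665890 to 12768949), had 13.4, 13.4 and 12.6 CPM in the controls and 2.89, 3.30 and 2.6 CPM in treated cells. Every treated library was far below every control, and the fall was 4.47-fold (log2 change -2.16, SE 0.147; edgeR adjusted p = 2.39e-20). With each library left out in turn it lay between -2.26 and -2.08 on the log2 scale. Apart from NPPB, which rests on 44 counts in all, this was the largest change among the 15 tested genes.

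Over all roles, 13 of the 15 tested genes were called, 5 higher and 8 lower. Among all 15575 tested genes 63.5% were called, 32.3% higher and 31.2% lower, so 13 of 15 stands beside a high background and is no finding about these genes. Changes of at least 2-fold were called for MYOCD, DES, CACNA1C and GJA1, all lower, where 10.9% of all tested genes rose and 4.62% fell by that much. NPPB (lower) and MEF2C (higher) also differed by over 2-fold, but each passed the filter only through the group where it was high; without both, 4 members were called higher and 7 lower. The groups did not overlap for 4 genes that were higher and 7 that were lower, against 66.7% of all tested genes, 34.1% higher and 32.6% lower. MEF2C is among the 4 and NPPB among the 7, so for both a separation was partly built in by the filter. The median log2 change of the tested members was -0.33, and that of all tested genes 0.02; with total-count scaling the median of all genes moved to 0.15, and the calls of all genes split 6355 higher and 3602 lower instead of 5028 and 4865. No tested member changed direction under any of the 3 other scalings.

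**Figure D4:**
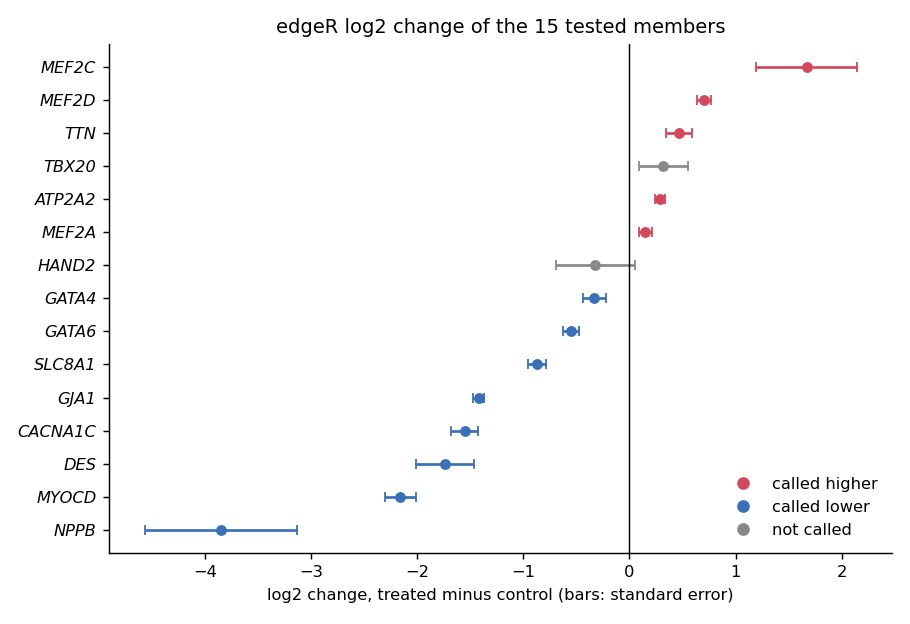
Log2 change, treated minus control, of the 15 tested genes (horizontal axis) with its standard error as a bar; red points were called higher, blue points lower and grey points not called. NPPB, MYOCD and DES lie farthest to the left, and MEF2C farthest to the right with a wide error.

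The levels were ordered in steps. After GJA1 and ATP2A2 came GATA6 (10.4 ± 0.373 RPKM) and MEF2A (9.50 ± 0.707 RPKM) in controls, then MEF2D (6.69 ± 0.175 RPKM) and GATA4 (4.03 ± 0.478 RPKM). The ranges of 1 SD around GATA6 and MEF2A overlapped, though GATA6 was the higher in each control library. SLC8A1, DES and MYOCD at 1.53, 1.49 and 1.48 RPKM could not be told apart. TBX20 (1.22 ± 0.197 RPKM) and NPPB (1.12 ± 0.324 RPKM) had overlapping ranges of 1 SD, as did NPPB and CACNA1C (0.892 ± 0.0220 RPKM). In all, 11 genes had at least 1 RPKM in controls and 7 in treated cells. In treated cells MEF2D (10.8 ± 0.846 RPKM) and MEF2A (10.5 ± 0.80 RPKM) were level, and GATA6 (7.10 ± 0.271 RPKM) followed. The length used counts every annotated exon, which for SLC8A1 comes to 21922 bases and for CACNA1C to 19103; which of these exons the cells use was not tested.

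Other genes of the same systems, 103 in 4 lists, were read for comparison. Of these 60 were tested, with 21 called higher and 26 lower. Among all tested genes 32.3% were called higher and 31.2% lower, which is the background for each list below. Genes that passed the filter through the treated libraries alone, such as MYLK3, are among these calls. Of 30 further sarcomere genes 16 were tested; 7 were higher and 7 lower, and their median was 0.19 on the log2 scale. MYOM1, a protein of the M-band, rose from 0.213 ± 0.132 to 2.16 ± 0.310 CPM (log2 change 3.32, SE 0.438; edgeR adjusted p = 1.21e-09), but it passed the filter through the treated libraries alone. ANKRD1, a stress-responsive sarcomere and nuclear protein, rose from 5.97 ± 0.449 to 23.8 ± 1.71 CPM (log2 change 1.99). TPM1, alpha-tropomyosin, which non-muscle cells make too, fell from 612 ± 6.58 to 190 ± 6.35 CPM (log2 change -1.69), and other genes share 21.4% of its exon bases.

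Of 29 further calcium handling genes 20 were tested, with 7 higher, 8 lower and a median of -0.16. JPH2, junctophilin, which holds the cell membrane to the calcium store, fell from 6.76 ± 1.01 to 3.04 ± 0.267 CPM (log2 change -1.15). CALM3, a calmodulin gene, fell from 595 ± 19.7 to 301 ± 13.7 CPM (log2 change -0.98). CACNB2, a subunit of the L-type channel whose pore CACNA1C makes, rose from 0.677 ± 0.374 to 1.35 ± 0.278 CPM (log2 change 0.97, SE 0.385; edgeR adjusted p = 0.0235). DESeq2 did not call CACNB2 (adjusted p = 0.0568), and other genes share 13% of its exon bases.

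Of 20 further channel and junction genes 8 were tested, with 4 higher, 3 lower and a median of 0.77. KCNJ2, the inward rectifier potassium channel, had the largest log2 change among the tested genes of the 4 lists, from 0.223 ± 0.182 to 4.45 ± 0.394 CPM (log2 change 4.24, SE 0.353; edgeR adjusted p = 1.31e-16). It too passed the filter through the treated libraries alone. The desmosome genes JUP (2.80 ± 0.713 to 11.9 ± 0.140 CPM, log2 change 2.08) and DSP (2.72 ± 0.860 to 8.70 ± 1.17 CPM, log2 change 1.66) rose, while PKP2, another desmosome gene, fell from 5.67 ± 0.769 to 3.17 ± 0.328 CPM (log2 change -0.84; edgeR adjusted p = 6.32e-05). PKP2 was named after its values were seen. GJA1, the gap junction gene among the members, had fallen.

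Of 24 further cardiac factors 16 were tested, with 3 higher, 8 lower and a median of -0.27. The T-box repressor genes TBX2 (9.22 ± 0.823 to 27.3 ± 1.55 CPM, log2 change 1.57) and TBX3 (50.9 ± 2.05 to 106 ± 2.20 CPM, log2 change 1.06) rose, and the homeobox gene MEIS2 fell from 38.2 ± 2.97 to 18.0 ± 0.598 CPM (log2 change -1.09).

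**Figure D5:**
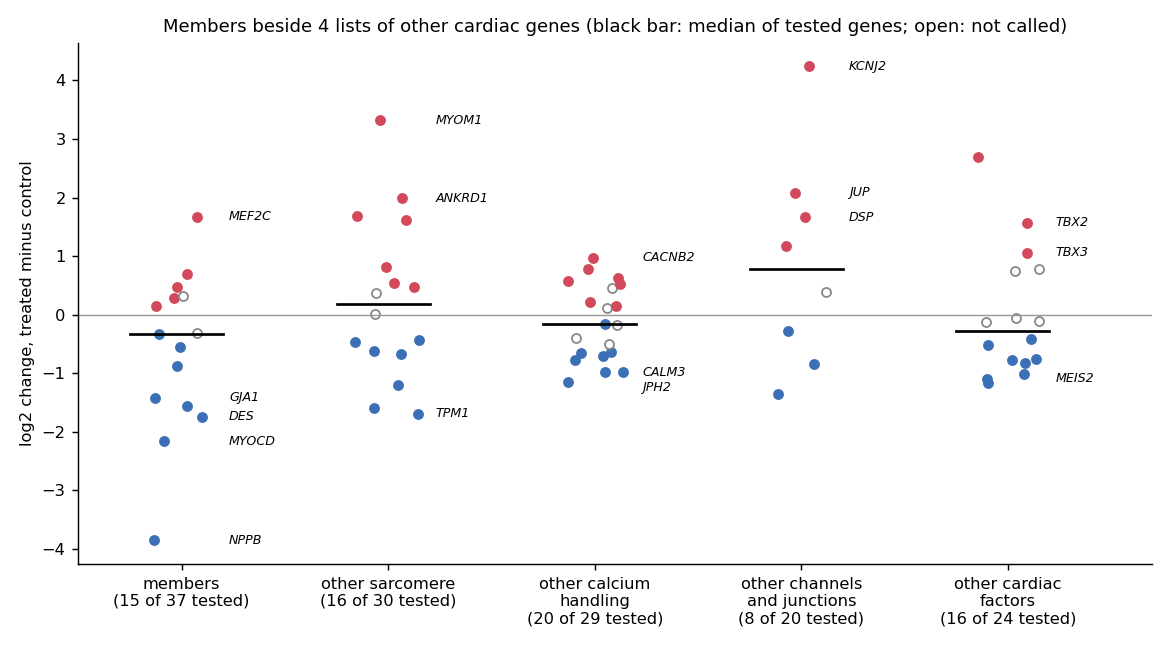
Log2 change of the tested members and of the tested genes of 4 further lists (vertical axis); each point is 1 gene, red where called higher, blue where called lower and open where not called, with the median as a black bar. Each list holds genes on both sides of 0, from NPPB at -3.85 to KCNJ2 at 4.24.

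Markers of other cell types set the cardiac values in proportion. All 10 fibroblast genes read, among them COL1A1, COL1A2 and COL3A1, had counts in every library, with a summed level of 14300 to 15500 CPM in controls and 5520 to 5910 CPM in treated cells. Of these genes 8 fell, the transcription factor gene TCF21 rose (0.77 ± 0.415 to 3.23 ± 0.742 CPM) and DDR2 was not called (log2 change 0.04). The 8 smooth muscle genes summed to 1620 to 1700 CPM and then 1210 to 1320 CPM, with 4 higher and 4 lower. CALD1 was the largest part of that sum (996 ± 63.0 and then 486 ± 26.2 CPM). ACTA2 rose from 9.61 ± 0.62 to 67.4 ± 2.33 CPM, while TAGLN fell from 222 ± 10.1 to 42.0 ± 3.25 CPM. MYH11 was low in both groups (0.574 ± 0.163 and 2.23 ± 0.8 CPM). The 10 skeletal muscle genes summed to only 2.66 to 3.63 CPM and then 4.67 to 5.54 CPM, with MYOD1, MYOG and PAX7 at 0 in each control. Endothelial genes (7) summed to 22.5 to 25.4 and then 12.8 to 13.8 CPM, a drop carried by TEK (20.7 ± 0.630 to 7.01 ± 0.485 CPM), which was called lower, while PECAM1, KDR and CLDN5 were called higher. CLDN5 passed the filter through the treated libraries alone, and PECAM1 had only 1 control library past the filter's CPM cutoff. KDR was not called by DESeq2 (adjusted p = 0.0682) or without the filter (edgeR adjusted p = 0.0505). Epithelial genes (5, mostly KRT18) summed to 218 to 229 and then 196 to 212 CPM, and leukocyte genes (6, with LYZ and CD3E at 0 in controls) summed to 2.22 to 3.14 and then 5.49 to 6.40 CPM. Of the 10 fibroblast markers, 8 were thus called lower and TCF21 higher, where 31.2% of all tested genes were called lower and 32.3% higher. Of the 15 tested members 8 were called lower and 5 higher. Any link between the changes of the markers and those of the members was not tested.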

How the data were processed

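The authors deposited whole-number counts per Ensembl gene, with exon coordinates and length, as the table's header shows (per the file headers). Build hg38 (GRCh38) and the tools STAR, featureCounts, Subread and SAMtools come from the submitters' processing notes. Tool versions, the annotation and how reads were assigned are not given in the sources used here. Among the identifiers 57717 had a symbol, and 57427 had the start and end of GENCODE release 29. The gene length in bases is the other deposited value used.

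Genes were filtered with filterByExpr (minimum count 10), scaled by TMM and tested with edgeR 4.0.16 in R 4.3.3 (treatment only; prior count 0.125). Each SE is the absolute log2 change over √F, the root of its test statistic. Groups came from the sample titles. Ratios of summed counts have exact binomial intervals (95%); against 0, 3 counts over the group are the floor. Exon overlap was computed with bedtools 2.31.1. Tests were checked on simulated data. Alternatives were other scalings, filters, DESeq2 1.42.0, limma-voom 3.58.1, a replicate block, leaving out each library, an adjusted p of 0.01 and glmTreat against 1.5-fold.

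The members and lists were chosen with earlier results of these data known. All members were named; of each further list, the 3 called genes with the largest change and at least 1 CPM on average. Pairs of libraries of a group differed by more than sampling noise (chi-square per degree of freedom 3.00 to 4.01).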

Additional observations from a re-analysis of the deposited data

How the results depend on the processing

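Of 223 values of the 15 tested members under 15 alternatives, 208 kept direction and side of the threshold, 15 kept direction but lost their call, and none reversed. Tested against a 1.5-fold change with glmTreat, 1 member was called higher and 6 lower, and of all genes 1852 were higher and 1141 lower; TTN, ATP2A2, GATA4, GATA6, MEF2A and MEF2D lost their calls there. Leaving out members that share over 10% of exon bases with other genes, an alternative chosen after seeing the data, left 3 higher (TTN and MEF2A were removed) and 8 lower. Leaving out NPPB and MEF2C, which passed the filter through 1 group, also chosen after seeing the data, left 4 and 7. Without each library in turn, 4 to 5 members were higher and 7 to 8 lower, and of all genes 4709 to 4960 were higher and 4574 to 4735 lower. Same-numbered libraries did not deviate together (correlations -0.0225, -0.00714 and -0.00718), and the replicate block again gave 5 members higher and 8 lower, and 4892 and 4761 of all genes. Genes under about 17 counts per library are limited by depth, and their ratios cover counting error only.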
